A study of Drosophila melanogaster with 9 samples.

Results

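Secretory cells fold and quality-control new proteins in the endoplasmic reticulum (ER), and 8 genes of that system were followed through ovary transcriptomes of Drosophila melanogaster that differ in Moesin alleles. The genes are Ire1, Xbp1, crc, Hsc70-3, Gp93, Edem1, Edem2 and sip3. They were chosen by function, but with earlier results of these data known, so their counts beside all genes are descriptions. They were matched by symbol or synonym to 8 of the 17558 gene identifiers in the files, and all 8 had enough counts to be tested. RNA was sequenced from ovaries of 3-day-old females kept at 25 °C, with ovaries of 10 females pooled per sample and 3 replicates in each of 3 groups. The mutant had moe[NES] and moe[G0415] on its pair of X chromosomes, the NES heterozygote carried moe[NES] over w[1118], and the null heterozygote carried moe[G0415] over w[1118]. Every group therefore carries at least 1 altered Moesin allele, and the labels call moe[G0415] a null allele without describing moe[NES] further. Moesin, encoded by Moe, links actin filaments to the plasma membrane, and by its title the series asks whether heat shock gene expression requires it. No heat shock or other agent is named for any group.

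The ER lumen holds its own chaperones, which bind proteins as they enter through the translocation channel. When unfolded proteins build up, the sensor Ire1 splices the messenger RNA of the transcription factor Xbp1, and the kinase PEK favours translation of the transcription factor crc, the fly ATF4. The genes they switch on enlarge folding capacity and send misfolded glycoproteins back to the cytosol for degradation, and in ovaries this machinery serves follicle cells that secrete yolk and eggshell proteins. Gene-level counts do not separate spliced from unspliced Xbp1 messages or translated from untranslated crc messages, so neither branch's activity is read here.

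The 9 libraries held 31.8 to 43.6 M (1e6) counts. Levels below are counts per 1e6 after TMM scaling (CPM), and a gene is called where edgeR's quasi-likelihood test gives a Benjamini-Hochberg adjusted p under 0.05 over the 8642 genes tested. Nothing in the labels ties replicates to separate crosses or days, and the p-values reflect the variation among these samples, which may be technical. Moe, the altered gene, was at 385 to 439.9 CPM in the mutant, 619 to 769 CPM in the NES heterozygote and 356 to 439 CPM in the null heterozygote. The summed level of 6 germline markers was 2958 to 3417 CPM in the mutant, 2685 to 3244 CPM in the NES heterozygote and 2596 to 3491 CPM in the null heterozygote, which fits the labelled tissue. Among markers of other tissues, those of muscle summed to 94.5 to 168 CPM in the mutant, 58.7 to 108 CPM in the NES heterozygote and 65.0 to 122 CPM in the null heterozygote, those of fat body to at most 55.1 CPM and those of gut to at most 27.5 CPM, in mutant replicate 3. The 5 hemocyte markers summed to 309 to 329 CPM in the mutant, 290.0 to 318 CPM in the NES heterozygote and 285 to 321 CPM in the null heterozygote, nearly all of it from crq, while Hml, eater and NimC1 were at or under 0.787 CPM in every library. Eggshell and yolk genes (23 genes) took 3.57% to 5.37% of counts in the mutant and 2.36% to 4.91% in the NES heterozygote. In the null heterozygote they took 0.856%, 4.68% and 1.04% in replicates 1, 2 and 3, so replicates 1 and 3 stood apart from all other libraries. These shares move with several of the ER genes and are given beside them. In a whole ovary, fewer cells of a type and less RNA per cell cannot be told apart.

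Across genotypes 1 of the 8 genes was called, Edem1, with the mutant above the null heterozygote. For that comparison 1.25% of all genes were called, 0.822% higher and 0.428% lower. Members whose 3 mutant libraries all lay above the 3 null heterozygote libraries numbered 3 (Edem1, Xbp1 and crc), a pattern that 10.6% of all genes showed, and 0 lay wholly below, as 7.8% of all genes did. Between the mutant and the NES heterozygote 0 members were called, while 3 had an unadjusted p under 0.05 (Edem1, Edem2 and crc). There 0.972% of all genes were called, 0.579% higher and 0.393% lower. In that comparison 4 members lay wholly higher in the mutant (Edem1, Edem2, Xbp1 and crc), against 13.5% of all genes, and 0 lay wholly lower, against 11.4%. Between the NES and the null heterozygote 0 members were called, and Edem2 alone had an unadjusted p under 0.05. The shares of all genes called there were 0.833% in either direction, 0.44% higher and 0.393% lower. Edem2 was also the 1 member lying wholly lower in the NES heterozygote, as 7.05% of all genes did, and 0 lay wholly higher, against 6.25%. The comparisons share samples, so they are not independent of each other.

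**Figure D1:**
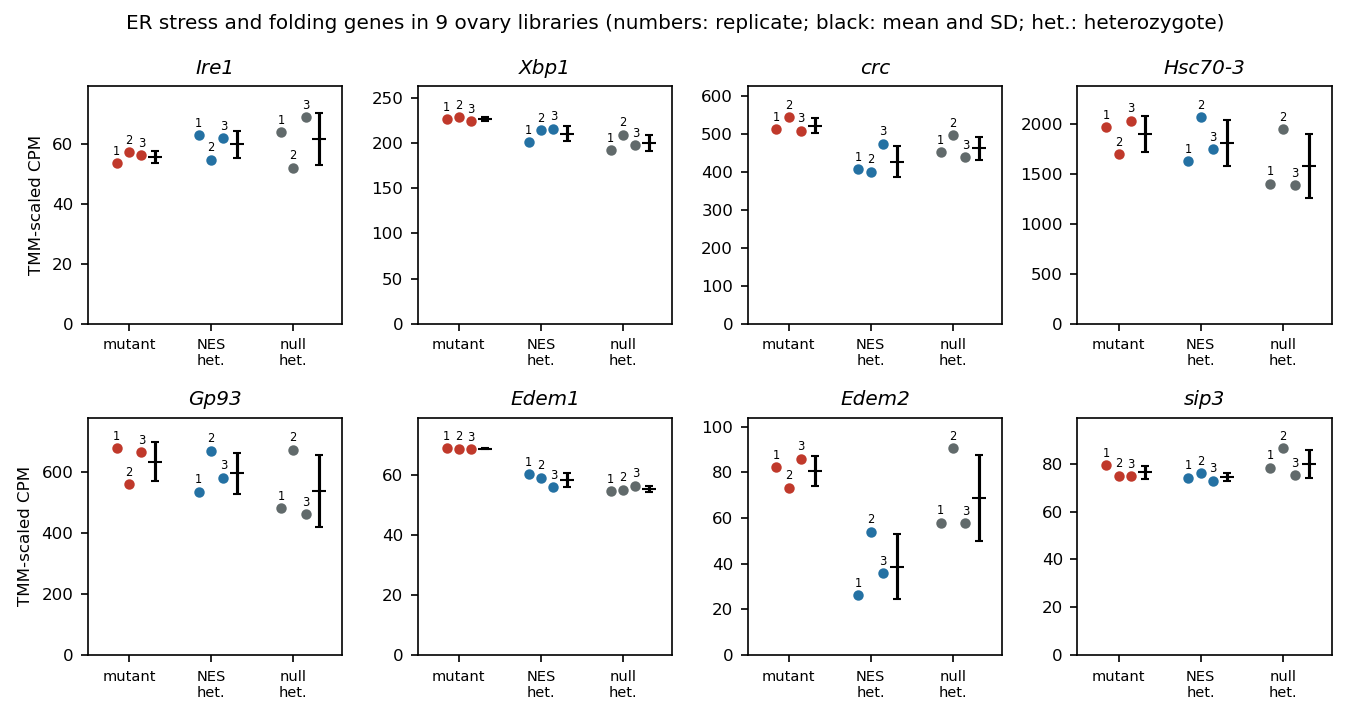
TMM-scaled CPM (vertical axes, from 0) of the 8 genes in each of 9 ovary libraries, by genotype, with replicate numbers beside the points and mean and SD in black; het. stands for heterozygote. The 3 mutant libraries of Edem1 sit between 68.5 and 68.7 CPM, a span narrower than counting noise, above all 6 heterozygote libraries. Hsc70-3 and Gp93 spread widely within each genotype.

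Edem1 (FBgn0023511, chromosome X, 1903704 to 1908827, minus strand, BDGP6.54 annotation) encodes an ER protein related to mannosidases that directs misfolded glycoproteins to ER-associated degradation. It was at 68.7, 68.6 and 68.5 CPM in mutant replicates 1, 2 and 3, against 60.1, 59.0 and 55.8 CPM in the NES heterozygote and 54.6, 55.0 and 56.3 CPM in the null heterozygote. Every mutant library was above every heterozygote library, and the 2 heterozygotes overlapped. The means were 68.6 ± 0.10 CPM in the mutant, 58.3 ± 2.27 CPM in the NES heterozygote and 55.3 ± 0.923 CPM in the null heterozygote (SD, n = 3 each). The mutant levels came from 2940, 2596 and 2776 counts. Counting noise at such counts exceeds 0.10 CPM, so the mutant SD does not measure how precisely replicates repeat. Edem1 rose by 24.1% in the mutant over the null heterozygote (log2 fold change 0.31, SE 0.055, 95% interval 0.18 to 0.44, edgeR adjusted p = 0.0352). It ranked 97 by p among the 8642 genes. Against the NES heterozygote the mutant's log2 fold change was 0.24 (SE 0.055, interval 0.11 to 0.36), which missed the threshold with an edgeR adjusted p of 0.122. It was called in 2 of 19 alternatives, DESeq2 (0.23, adjusted p = 0.00885) and the eggshell and yolk covariate (0.24, edgeR adjusted p = 0.00898). Those fits called 3% and 10.7% of all genes in that comparison. The NES heterozygote differed from the null heterozygote by 0.08 (interval -0.05 to 0.20, edgeR adjusted p = 0.835).

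The size of the Edem1 difference was steadier than its call. Over 19 alternative settings its log2 fold change in the mutant against the null heterozygote lay between 0.25 and 0.34, and it was called in 6 of them. With DESeq2, which called 5.28% of genes in that comparison, the adjusted p was 5.1e-05. The call was lost with library size as the scaling (adjusted p = 0.134), with no low-count filter (0.102) and with the 2 groups fitted alone (0.122). It was also lost on leaving out any 1 library other than null heterozygote replicate 2. In null heterozygote replicate 2, where eggshell and yolk genes took 4.68% of counts, Edem1 was at 55.0 CPM, between its levels in replicates 1 and 3. With that share as a covariate, under which 8.64% of all genes were called, the log2 fold change was 0.32 (edgeR adjusted p = 0.0116).

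Edem1 and Hsc70-3 lie on chromosome X, as does Moe. For both genes, Moesin genotype and other differences between the X chromosomes used in the crosses cannot be told apart. Differences between the stocks on other chromosomes were not tested either. The start of Edem1 also overlaps mip130, and its end an antisense RNA listed as asRNA:CR43864, both on the opposite strand. The strand setting of the counting is not given in the sources used here, so reads could have been exchanged between them. The antisense RNA was at most 0.195 CPM in any library. mip130 averaged 78.3 ± 7.46 CPM in the mutant, 85.7 ± 11.5 CPM in the NES heterozygote and 86.6 ± 22.5 CPM in the null heterozygote (SD, n = 3 each). Its mutant mean was the lowest of the 3, opposite to Edem1, but null heterozygote replicate 2 (60.7 CPM) lay below all mutant libraries (72.5 to 86.7 CPM). It was not called (log2 fold change -0.15 against the null heterozygote, edgeR adjusted p = 0.644). Whether reads were exchanged was not tested.

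Edem2 (FBgn0032480, chromosome 2L, 13192201 to 13197281, plus strand) encodes the other fly EDEM protein, with the same known role, and varied more than any other member. It was at 82.2, 73.3 and 86.1 CPM in the mutant, against 26.2, 54.0 and 35.9 CPM in the NES heterozygote and 58, 90.5 and 57.8 CPM in the null heterozygote. The NES heterozygote was low in all 3 libraries, with no overlap with either of the other genotypes, while the mutant lay inside the range of the null heterozygote. Within each heterozygote, replicate 2 was the highest library and also had the highest eggshell and yolk share. The highest of the 9 libraries was 3.46 times the lowest, against 1.49 times for Hsc70-3 and 1.19 times for sip3. Mean levels were 80.6 ± 6.5 CPM in the mutant, 38.7 ± 14.1 CPM in the NES heterozygote and 68.8 ± 18.8 CPM in the null heterozygote (SD, n = 3 each).

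For Edem2 the mutant's log2 fold change was 1.06 against the NES heterozygote (SE 0.267, 95% interval 0.45 to 1.67, edgeR adjusted p = 0.149). That of the NES against the null heterozygote was -0.83 (SE 0.266, interval -1.44 to -0.22, edgeR adjusted p = 0.284). Between the mutant and the null heterozygote the difference was 0.23 with a wide interval, -0.37 to 0.83 (edgeR adjusted p = 0.602). That difference turned to -0.28 with the eggshell and yolk covariate and to -0.18 without null heterozygotes 1 and 3, and it lay between 0.11 and 0.47 on leaving out 1 library. None of the 3 passed the threshold over all genes. The difference between the mutant and the NES heterozygote did pass in 3 alternatives. DESeq2, which called 3% of genes in that comparison, gave 1.05 with an adjusted p of 0.00424. The eggshell and yolk covariate, with which 10.7% of genes were called, gave 0.95 (edgeR adjusted p = 0.00164). Leaving out null heterozygote replicate 2, where 2.93% of all genes were called, gave an edgeR adjusted p of 0.0408. With the covariate the NES heterozygote was also called lower than the null heterozygote (-1.23, edgeR adjusted p = 0.000538), in a fit that called 26.8% of all genes for that comparison. Edem2 overlaps CG16972 on the opposite strand, which averaged 59.1 CPM over the 9 libraries.

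sip3 (FBgn0039875, chromosome 3R, 31772219 to 31775163, plus strand), the fly form of the Hrd1 ubiquitin ligase that marks proteins leaving the ER, was the steadiest member together with Xbp1. It was at 79.5, 75.1 and 74.7 CPM in the mutant, 74.2, 76.2 and 72.9 CPM in the NES heterozygote and 78.4, 86.4 and 75.2 CPM in the null heterozygote. All 3 genotypes overlapped, with null heterozygote replicate 2 the highest library. The mutant differed from the null heterozygote by -0.07 (95% interval -0.22 to 0.09, edgeR adjusted p = 0.559) and from the NES heterozygote by 0.04 (-0.11 to 0.19, adjusted p = 0.794), on the log2 scale. The NES heterozygote differed from the null heterozygote by -0.10 (interval -0.26 to 0.05, edgeR adjusted p = 0.764). With the eggshell and yolk covariate that difference was -0.18 and was called (edgeR adjusted p = 0.0267), in a fit that called 26.8% of all genes.

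**Figure D2:**
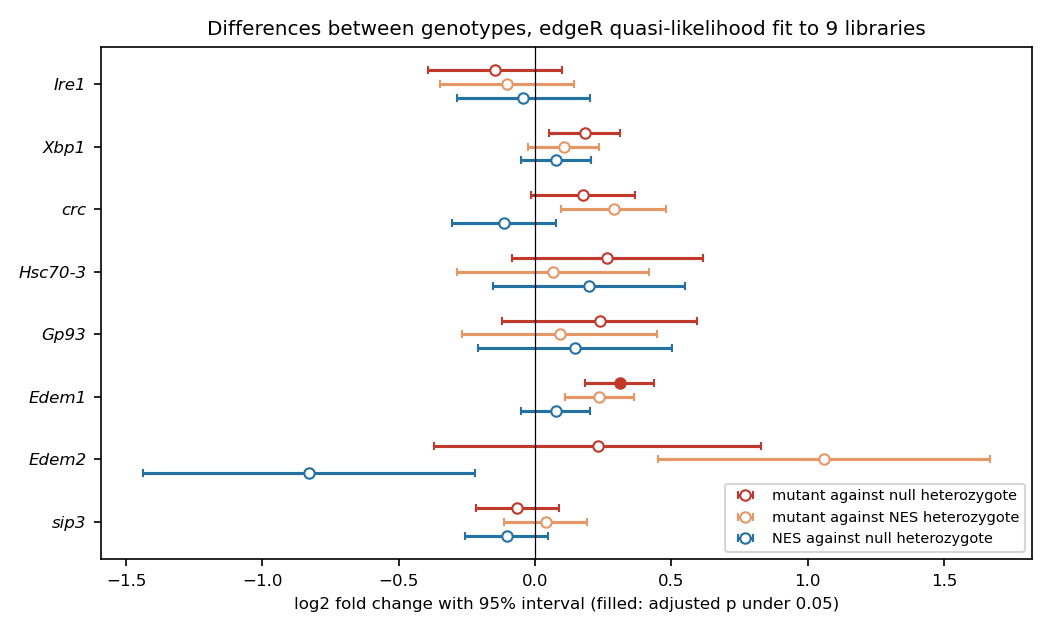
Log2 fold changes (horizontal axis) of the 8 genes with 95% intervals, for the mutant against the null heterozygote, the mutant against the NES heterozygote and the NES against the null heterozygote, from 1 edgeR fit to 9 libraries; filled points have an adjusted p under 0.05. The 1 filled point is Edem1 in the mutant against the null heterozygote at 0.31, and Edem2 has the widest intervals.

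Xbp1 (FBgn0021872, chromosome 2R, 21143545 to 21145750, plus strand) was at 227, 229 and 225 CPM in the mutant, 202, 215 and 216 CPM in the NES heterozygote and 193, 209.9 and 198 CPM in the null heterozygote. The 3 mutant libraries lay within a narrow band above all 6 heterozygote libraries. The log2 fold change of the mutant against the null heterozygote was 0.18 (SE 0.057, 95% interval 0.05 to 0.31, edgeR adjusted p = 0.187). Against the NES heterozygote it was 0.11 (interval -0.02 to 0.23, edgeR adjusted p = 0.527). Neither passed the threshold. DESeq2, with which 5.28% of all genes were called, called the first (adjusted p = 0.0342). So did edgeR without null heterozygote replicate 2 (adjusted p = 0.0164), a setting in which 41.6% of all genes were called.

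crc (FBgn0000370, chromosome 2L, 21310866 to 21319527, plus strand), the transcription factor of the PEK branch, had 513, 545 and 509 CPM in the mutant, 408, 400.5 and 474 CPM in the NES heterozygote and 451, 497 and 439.7 CPM in the null heterozygote. Here too every mutant library was above every heterozygote library. The mean was 522 ± 19.7 CPM in the mutant, 428 ± 40.6 CPM in the NES heterozygote and 463 ± 30.1 CPM in the null heterozygote (SD, n = 3 each). The mutant's log2 fold change was 0.29 against the NES heterozygote (SE 0.084, interval 0.10 to 0.48, edgeR adjusted p = 0.209) and 0.18 against the null heterozygote (interval -0.02 to 0.37, edgeR adjusted p = 0.318). With the eggshell and yolk covariate the first was called (0.27, edgeR adjusted p = 0.0251), in a fit that called 10.7% of all genes.

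Ire1 (FBgn0261984, chromosome 3R, 19853908 to 19861291, minus strand), the sensor kinase and nuclease upstream of Xbp1, was at 53.5, 57.3 and 56.4 CPM in the mutant. It was at 62.8, 54.8 and 61.9 CPM in the NES heterozygote and 63.9, 52.0 and 69.0 CPM in the null heterozygote. The genotypes overlapped, and in each of them the library with the most eggshell and yolk counts was the lowest for Ire1. On the log2 scale the mutant differed from the null heterozygote by -0.15 (interval -0.39 to 0.10, edgeR adjusted p = 0.441) and from the NES heterozygote by -0.10 (interval -0.35 to 0.14, edgeR adjusted p = 0.675). Between Ire1 and Xbp1, whose highest levels were in the mutant, the Pearson r in log2 CPM was -0.68 over 9 libraries. Over the 7 left without null heterozygotes 1 and 3 it was -0.35. Message levels do not show whether Ire1 was active. Without null heterozygotes 1 and 3 the sign of the Ire1 difference from the null heterozygote turned, to 0.09.

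Hsc70-3 (FBgn0001218, chromosome X, 11801696 to 11807117, minus strand), the fly BiP and the main Hsp70 chaperone of the ER lumen, was the most abundant member. It was at 1971, 1697 and 2036 CPM in the mutant, 1626, 2072 and 1747 CPM in the NES heterozygote and 1402, 1951 and 1391 CPM in the null heterozygote. The genotypes overlapped. Null heterozygote replicate 2 lay among the mutant libraries, and the other 2 replicates of that genotype lay lowest. NES heterozygote replicate 2 was the highest library of all, and mutant replicate 2 lay below NES heterozygote replicate 3. The mutant was 0.27 above the null heterozygote on the log2 scale (SE 0.154, 95% interval -0.09 to 0.62, edgeR adjusted p = 0.372) and 0.07 above the NES heterozygote (interval -0.29 to 0.42, edgeR adjusted p = 0.845).

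Gp93 (FBgn0039562, chromosome 3R, 27948711 to 27952151, plus strand), the ER form of Hsp90, followed the same order of libraries closely. It had 677, 561 and 664 CPM in the mutant, 535, 669 and 581 CPM in the NES heterozygote and 480.3, 672 and 461 CPM in the null heterozygote. Again null heterozygote replicate 2 was level with the highest mutant libraries and replicates 1 and 3 were the lowest of all 9. The mutant differed from the null heterozygote by 0.24 (interval -0.12 to 0.59, edgeR adjusted p = 0.411) and from the NES heterozygote by 0.09 (interval -0.27 to 0.45, edgeR adjusted p = 0.794), on the log2 scale.

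The fold changes of both chaperones over the null heterozygote varied with the null heterozygote libraries kept. Replicates 1 and 3 of that genotype were the lowest libraries for both genes, so leaving them out lowers the fold change by construction. With those 2 libraries left out, 1 null heterozygote library remained. The mutant's log2 fold changes were then -0.05 for Hsc70-3 and -0.10 for Gp93. With null heterozygote replicate 2 left out instead, they were 0.44 (edgeR adjusted p = 0.0175) and 0.43 (edgeR adjusted p = 0.0177). That library was the highest of its genotype for both genes, so leaving it out raises the fold change by construction. Ire1 was called lower in that setting (-0.26, edgeR adjusted p = 0.0305), which called 41.6% of all genes. With the eggshell and yolk share as a covariate the log2 fold changes of Hsc70-3 and Gp93 were -0.06 and -0.10. The part of egg chamber stage, or of any other difference between these libraries, in the levels of Hsc70-3, Gp93 and Ire1 was not tested further.

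**Figure D3:**
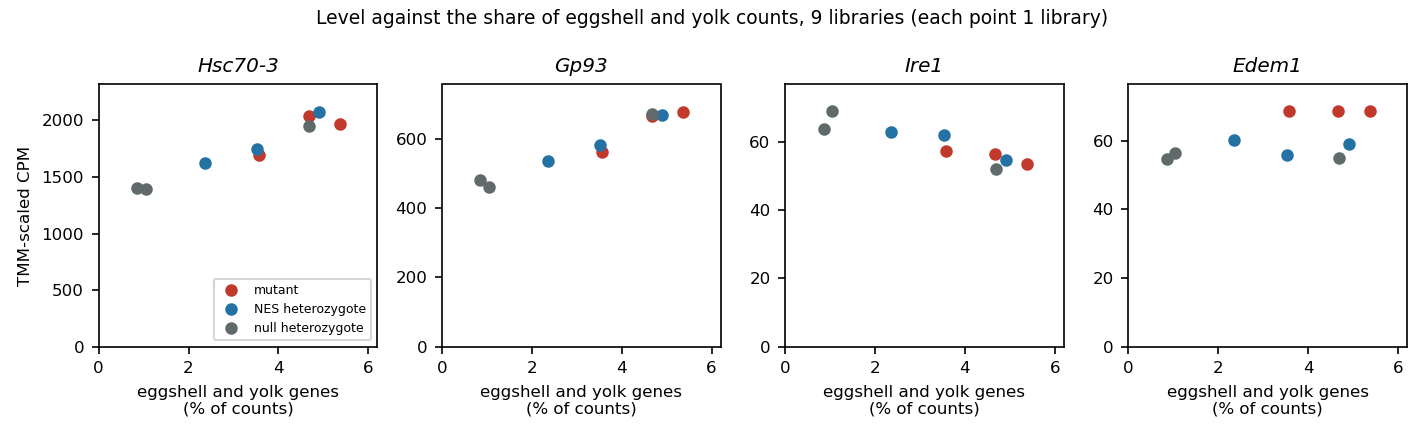
TMM-scaled CPM (vertical axes, from 0) of Hsc70-3, Gp93, Ire1 and Edem1 against the share of counts in 23 eggshell and yolk genes (horizontal axes, %), 1 point per library, coloured by genotype. Hsc70-3 and Gp93 are lowest in the 2 null heterozygote libraries with shares of 0.856% and 1.04%, Ire1 is highest there, and Edem1 is higher in the 3 mutant libraries, whose shares are 3.57% to 5.37%, than in all heterozygote libraries.

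Per kb of exon, which allows levels of different genes to be set side by side, the 8 genes spanned a wide range. Hsc70-3 was highest, with 492 CPM per kb on average over the 9 libraries (388 to 577), followed by Gp93 with 207 (162 to 238), crc with 138 (117 to 159), Xbp1 with 99.3 (89.9 to 107) and sip3 with 28.9 (27.4 to 32.5). The ranges of these 5 neighbours did not overlap. Edem2 with 15.3 (6.40 to 22.2), Ire1 with 14.6 (12.9 to 17.1) and Edem1 with 12.8 (11.5 to 14.5) CPM per kb overlapped each other, so no order is given among them. The transcription factors were thus more abundant as messages than the sensor Ire1, and the chaperones were more abundant than the degradation factors.

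**Figure D4:**
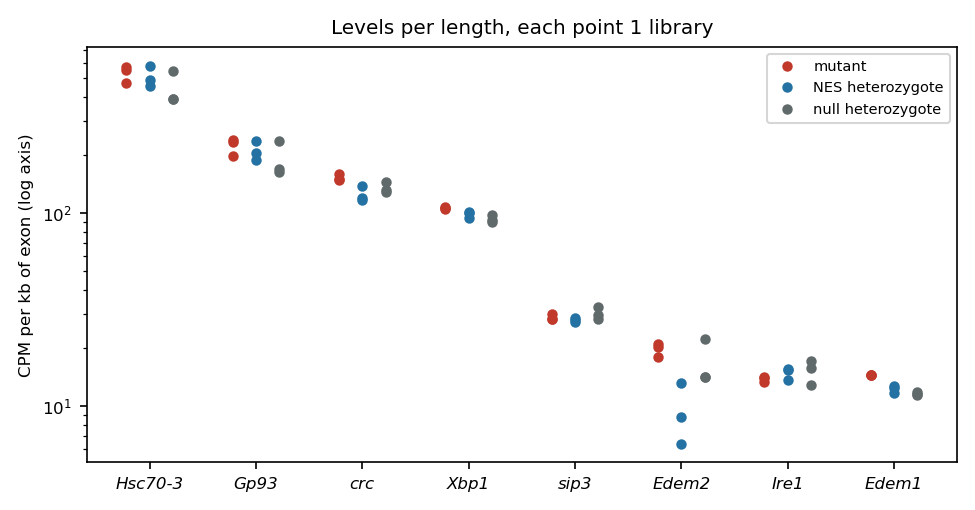
CPM per kb of exon (vertical axis, log scale) of the 8 genes in 9 libraries, coloured by genotype, ordered by mean level. Hsc70-3 averages 492 and Edem1 12.8 CPM per kb, and Edem2, Ire1 and Edem1 overlap.

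The members also differed in which libraries they resembled. Hsc70-3 and Gp93 had a Pearson r of 0.99 in log2 CPM over the 9 libraries, and of 0.97 over the 7 left without null heterozygotes 1 and 3. Ire1 ran opposite to Gp93, with r of -0.93 over 9 and -0.86 over 7 libraries. Edem1 and Xbp1 had r of 0.80 over 9 and 0.75 over 7 libraries, the highest value for Edem1 with another member. Edem1 and Hsc70-3 had r of 0.46 over 9 and 0.09 over 7. These values are descriptions: the libraries fall into 3 genotypes and differ in their eggshell and yolk shares, so the points are not independent.

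Among 6305 tested genes with a mean of at least 10 CPM, those closest to Hsc70-3 over the 9 libraries were blw (r = 0.990), Rpn1 (0.989), Pdhb (0.988), nrv1 (0.988) and DCTN2-p50 (0.988), and Gp93 ranked 6. An r above 0.9 with Hsc70-3 was found for 28 of 86 other ER genes (the other 7 members and 79 listed genes), 32.6%, against 9.91% of all 6305 genes. An r below -0.8 was found for 10 of the 86, 11.6%, against 25.9% of all genes. Closest to Edem1 were CR14033 (r = 0.985), kek5 (0.960), CG7381 (0.960), CG11679 (0.954) and otk2 (0.952). No ER gene of the 86 had an r above 0.9 with Edem1, and 0.19% of all genes did. The counts for both genes rest on all 9 libraries. They were not repeated without null heterozygotes 1 and 3, whose eggshell and yolk shares were the lowest.

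The rest of the ER machinery gives the setting for these 8. A list of 85 other ER genes, grouped by role, held 82 that matched an identifier in the files and 79 that were tested. Against the null heterozygote the mutant had 0 of 79 called with edgeR, while 10 (12.7%) had an unadjusted p under 0.05, against 17% of all genes. DESeq2 called 2 of the 79, beside 5.28% of all genes. The median log2 fold change of the 79 was 0.08 and 51 were positive, beside a median of 0.00 and 50% positive over all genes. The 8 members had a median of 0.21, with 6 positive. With the eggshell and yolk covariate 4 members were positive (Edem1, Xbp1, crc and Ire1), since Edem2, Hsc70-3 and Gp93 turned negative and Ire1 turned positive. In the mutant against the NES heterozygote the 79 had a median of 0.03 with 47 positive (59.5%) and 1 called, and the members had a median of 0.10 with 7 positive. Of all genes 50.4% were positive and 0.972% were called there. In the NES against the null heterozygote the 79 had a median of 0.04 with 53 positive (67.1%) and 1 called, and the members had 0.02 with 4 positive. Of all genes 49.3% were positive and 0.833% were called in that comparison. The median of the 79 in the mutant against the null heterozygote turned to -0.07 with the eggshell and yolk covariate and to -0.07 without null heterozygotes 1 and 3.

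The 1 gene called among the 79 was CG14715 (FBgn0037930, chromosome 3R, 11674221 to 11674923, plus strand), an FKBP-type prolyl isomerase gene of the chaperone list. It was at 42.8, 44.9 and 40.0 CPM in the mutant, 75.0, 88.6 and 77.8 CPM in the NES heterozygote and 41.3, 46.0 and 37.5 CPM in the null heterozygote. The NES heterozygote was high in all 3 libraries, the reverse of Edem2, and the other genotypes overlapped. CG14715 fell by 0.92 in the mutant against the NES heterozygote on the log2 scale (edgeR adjusted p = 0.00467, SE 0.099). It rose in the NES against the null heterozygote (0.95, SE 0.099, edgeR adjusted p = 0.00374), and the mutant differed from the null heterozygote by 0.03. It overlaps CG18476 on the opposite strand.

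Among 12 genes of unfolded protein response sensing and signalling, 0 were called in any comparison, with medians of 0.01 in the mutant against the null heterozygote, 0.02 against the NES heterozygote and 0.03 between the heterozygotes. Atf6, the third ER stress sensor, was at 86.1, 86.6 and 86.1 CPM in the mutant, 87.1, 99.9 and 95.1 CPM in the NES heterozygote and 98.9, 103 and 111 CPM in the null heterozygote. All mutant libraries lay below all heterozygote libraries, opposite to Xbp1, but the log2 fold change of -0.27 against the null heterozygote did not pass (SE 0.068, edgeR adjusted p = 0.113). DESeq2 called it. Gcn2, a kinase that also acts on eIF2alpha, differed by -0.20 (edgeR adjusted p = 0.345), and RtcB, the ligase that joins cut ends of the Xbp1 message, by 0.12 (edgeR adjusted p = 0.416). eIF2alpha itself averaged 250.1 ± 10.2 CPM in the mutant, 240.3 ± 3.87 CPM in the NES heterozygote and 251 ± 15.5 CPM in the null heterozygote (SD, n = 3 each). BI-1, a regulator of ER calcium and cell death, and Thor, a translation repressor induced by crc, differed by 0.06 and 0.26 in the mutant against the null heterozygote, with edgeR adjusted p of 0.733 and 0.578.

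The 14 chaperones and co-chaperones tested had medians of 0.05 in the mutant against the null heterozygote, -0.00 against the NES heterozygote and 0.04 between the heterozygotes. Sil1, the nucleotide exchange factor of BiP, was at 43.4, 43.4 and 42.9 CPM in the mutant, 50.3, 48.2 and 45.9 CPM in the NES heterozygote and 50.4, 51.1 and 50.5 CPM in the null heterozygote. The mutant was below both heterozygotes without overlap while Hsc70-3 was not, and the difference from the null heterozygote was -0.23 (SE 0.060, edgeR adjusted p = 0.124). CNPYb, of the canopy family of ER proteins, was lower in all mutant libraries than in any NES heterozygote library (-0.38, SE 0.078, edgeR adjusted p = 0.0703). The abundant CG2852, a cyclophilin, and Calr, the lectin chaperone calreticulin, averaged 982 ± 26.2 and 885 ± 59.0 CPM in the mutant, against 862 ± 164 and 800.3 ± 113 CPM in the null heterozygote (SD, n = 3 each). Their fold changes of 0.19 and 0.15 did not pass (edgeR adjusted p = 0.410 and 0.474). Manf, a small ER stress protein, differed by 0.06 (edgeR adjusted p = 0.863).

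Disulfide formation, with 6 genes tested, had the highest median of the 6 lists in the mutant against the null heterozygote, 0.21, with 4 positive and 0 called. CaBP1 (0.30), Qsox1 (0.29) and ERp60 (0.13) were positive, prtp was at -0.00 and Ero1L, the oxidase that drives disulfide isomerases, at -0.26, with edgeR adjusted p between 0.274 and 0.999. The 17 genes of N-glycosylation and glycan trimming had a median of 0.13, with 12 positive. The oligosaccharyltransferase subunits Ost48, Stt3A and OstDelta differed by 0.23, 0.18 and 0.17 and the trimming enzyme GCS2alpha by 0.06. xit and gny, glucosyltransferases that build the glycan precursor, differed by 0.24 and 0.13 in the mutant against the null heterozygote and by 0.24 and 0.32 against the NES heterozygote. None of these passed, with a lowest edgeR adjusted p of 0.265 for xit against the null heterozygote and 0.309 for gny against the NES heterozygote.

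The 18 genes of translocation into the ER were positive in 16 cases in the mutant against the null heterozygote, with a median of 0.16. Against the NES heterozygote 15 were positive, with a median of 0.12, and between the heterozygotes 12, with a median of 0.05. Of all genes 50%, 50.4% and 49.3% were positive in these comparisons, in that order. The list had 0 called in each, beside 1.25%, 0.972% and 0.833% of all genes. In the mutant against the null heterozygote, the channel subunit genes Sec61alpha and Sec61beta differed by 0.33 and 0.27 and the translocon protein gene SsRbeta by 0.24. Their edgeR adjusted p were 0.480, 0.538 and 0.589. Like Hsc70-3, Sec61alpha was high in null heterozygote replicate 2 (887 CPM) and low in replicates 1 and 3 (453 and 459 CPM), against 653 to 832 CPM in the mutant. The signal recognition particle genes split, with Srp72 at 0.22, Srp68 at 0.11 and Srp54k at -0.14.

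The 12 other genes of ER-associated degradation were the 1 list with a negative median in the mutant against both heterozygotes, -0.08 against each, with 4 positive against the null and 2 against the NES heterozygote. Edem1, which acts in the same process, was positive against both. Hrd3, the partner of sip3 in the ubiquitin ligase complex, was at 116, 114 and 120.3 CPM in the mutant, 114, 123 and 110.7 CPM in the NES heterozygote and 105, 105 and 104 CPM in the null heterozygote. It lay above the null heterozygote in all 6 other libraries, and the mutant differed from it by 0.16 (SE 0.056, edgeR adjusted p = 0.229). CG1317, listed as the fly March6 ligase, differed by 0.12 (edgeR adjusted p = 0.323). CG5823, a ubiquitin-conjugating enzyme gene, Npl4, CG6766 and Ubqn differed by -0.22, -0.14, -0.18 and -0.04, with edgeR adjusted p between 0.236 and 0.687.

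**Figure D5:**
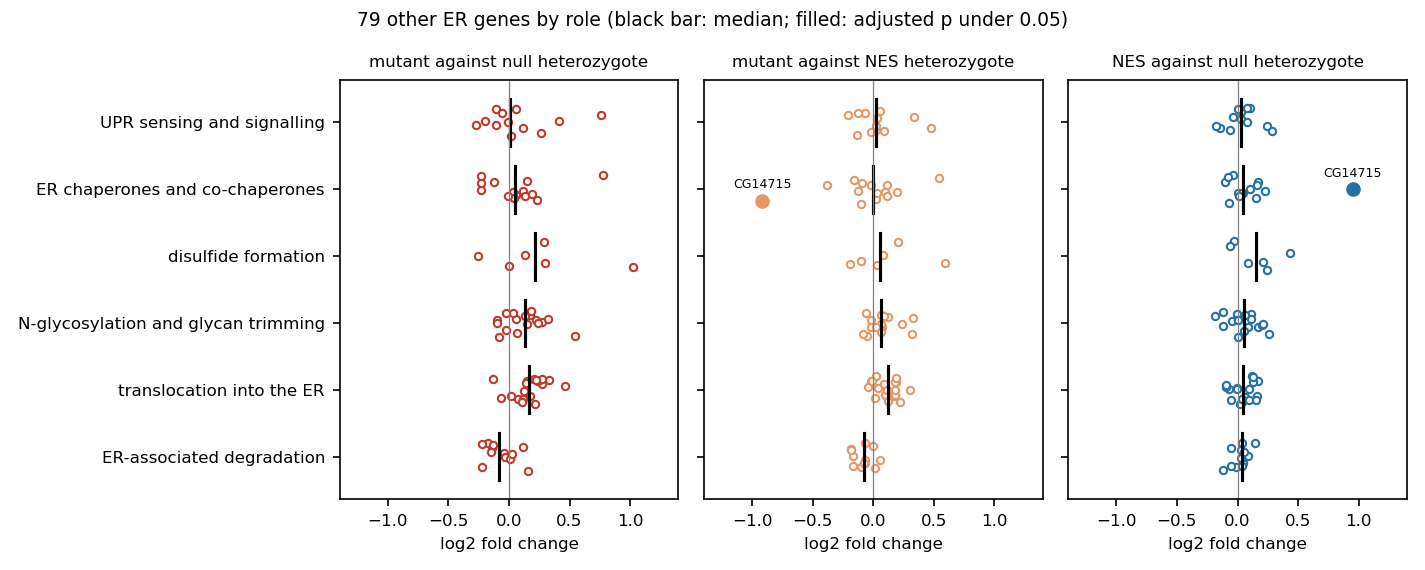
Log2 fold changes (horizontal axes) of 79 other ER genes by role, 1 point per gene, in the 3 comparisons; black bars are list medians, filled points have an edgeR adjusted p under 0.05, and vertical scatter within a role carries no value. The 1 filled gene is CG14715, at -0.92 and 0.95, and the translocation genes lie mostly right of 0 in the mutant comparisons.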

How the data were processed

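The authors deposited raw read counts per gene, 1 file for each of 9 ovary libraries, with no normalization. Per the labels' protocols, TRIzol-extracted RNA went into stranded TruSeq mRNA libraries. Tools listed in the submitters' processing notes, with no roles, are HISAT2 2.0.4, HTSeq, SAMtools 0.1.19, Trimmomatic 0.36 and FastQC, and the build is BDGP6. The sources used here give neither the annotation release nor the strand setting. Gene names and positions were read from Ensembl's BDGP6.54 annotation; 306 identifiers, with 5.00% of counts, did not match it and are not named.

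Groups came from the genotype labels. The software was R 4.3.3, edgeR 4.0.16 and limma 3.58.1. Genes passing filterByExpr (at least 10 counts, total of at least 15) were scaled by TMM and fitted to all 9 libraries by the quasi-likelihood test, with Benjamini-Hochberg adjustment over 8642 genes and a threshold of 0.05. Standard errors are the size of the log2 fold change over the square root of its F statistic. Libraries held 31.8 to 43.6 M (1e6) counts. The procedure was run on simulated counts with fold changes larger than that of Edem1 and without differences in eggshell and yolk share. The simulation therefore does not bear on calls of that size or on such differences. No replicate pair was a duplicate (chi-square over degrees of freedom 16.7 to 289), and each library counts once. Where genes overlap on opposite strands, counts are uncertain, which applies to 5 of the 8 genes (Edem1, Edem2, Ire1, Gp93 and sip3); their partners mip130, CG16972, MICU3, CG4951 and CG2126 were not called.

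The 8 genes and the lists of other ER genes were chosen with earlier results of these data known. Named genes are the 8, any other ER gene called, for each role the 3 of highest level per length and the 3 of lowest adjusted p in any comparison, and the 5 genes most like Hsc70-3 and Edem1. In the translocation list, Srp54 was replaced by Srp54k after the symbol was found to belong to another gene. Pdi, Der-1 and TER94 were not analysed here; Cnx14D, ninaA and Spase12 were too low to test. Alternatives, including DESeq2 1.42.0, were other scalings, filters and fits, each library left out in turn, the replicate number as a block, and the log2 share of eggshell and yolk counts as a covariate.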

Additional observations from a re-analysis of the deposited data

How the results depend on the processing

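Each value was recomputed under 19 alternatives. The number of the 8 genes called in the mutant against the null heterozygote was 1, and became 0 with library size alone, with no low-count filter, with only the 2 groups compared and without null heterozygotes 1 and 3 together. It became 2 with DESeq2 (Xbp1 and Edem1), and lay between 0 and 5 on leaving out 1 library, the 5 (Hsc70-3, Xbp1, Edem1, Gp93 and Ire1) without null heterozygote replicate 2, where 41.6% of all genes were called. Against the NES heterozygote the 0 called became 2 with DESeq2 (3% of all genes called) and 3 with the eggshell and yolk covariate (10.7% of all genes), with 0 to 1 on leaving out 1 library. Between the heterozygotes 0 became 2 with the covariate (26.8% of all genes called), Edem2 and sip3 (-0.18, adjusted p = 0.0267). Other ER genes called in the mutant against the null heterozygote went to 2 of 79 with DESeq2 (Atf6 and Sil1; 5.28% of all genes), 8 with the covariate (8.64% of all genes) and 0 to 45 on leaving out 1 library, 45 without null heterozygote replicate 2 (41.6% of all genes). Against the NES heterozygote they went to 2 with DESeq2 (3% of all genes), 6 with the covariate (10.7%), 2 with only the 2 groups compared (1.71%), 2 without null heterozygotes 1 and 3 (1.35%) and 1 to 2 on leaving out 1 library. Between the heterozygotes they went to 25 with the covariate (26.8% of all genes), 0 without null heterozygotes 1 and 3 (0.348%), where 1 null heterozygote library is left and is assumed to vary like the other groups, and 1 to 10 on leaving out 1 library, 10 without null heterozygote replicate 2 (8.38% of all genes). The causes were not tested. Signs turned as follows. With the covariate, the mutant against the null heterozygote was -0.28 for Edem2, 0.085 for Ire1, -0.058 for Hsc70-3 and -0.10 for Gp93; against the NES heterozygote Hsc70-3 was -0.017; between the heterozygotes Ire1 was 0.13, Hsc70-3 -0.041 and Gp93 -0.10. Without null heterozygotes 1 and 3 the mutant against the null heterozygote was -0.18 for Edem2, 0.087 for Ire1, -0.048 for Hsc70-3 and -0.10 for Gp93, and between the heterozygotes Xbp1 was -0.00085, Ire1 0.19, Hsc70-3 -0.11 and Gp93 -0.19. On leaving out 1 library, Hsc70-3 in the mutant against the NES heterozygote lay between -0.0053 (without NES heterozygote replicate 1) and 0.17, and Ire1 between the heterozygotes lay between -0.15 and 0.038 (without null heterozygote replicate 3). None of these was a called value. The median of the 79 other ER genes between the heterozygotes was -0.07 with the covariate and -0.12 without null heterozygotes 1 and 3. Same-numbered libraries of different genotypes had correlations of -0.45 to 0.48 in their deviations from the group means, and other-numbered ones -0.585 to 0.46. With 3 libraries per group these values cannot settle whether replicate numbers mark a shared batch, and samples were treated as unpaired. With the replicate number as a block, 0 of the 8 genes were called in the mutant against the null heterozygote, Edem1 having 0.31 with an adjusted p of 0.132. The search of promoters for motifs was not run, as no promoter sequences were used here. Each of the 8 genes had at least 26.2 CPM in every library; the effect of depth on the calls was not tested.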

Other observations

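The 3 largest fold changes among the 79 other ER genes in the mutant against the null heterozygote belonged to wbl, Fkbp14 and CrebA, which are named here after their values were seen. wbl, a disulfide isomerase relative needed in follicle cells for dorsoventral patterning of the embryo, was at 34.5, 21.2 and 28.5 CPM in the mutant, 9.64, 32 and 14.3 CPM in the NES heterozygote and 3.77, 33.9 and 4.08 CPM in the null heterozygote. CrebA, a transcription factor of secretory pathway genes, was at 55.7, 34.3 and 47.8 CPM in the mutant, 16.8, 53.3 and 29.1 CPM in the NES heterozygote and 11.7, 58.2 and 11.6 CPM in the null heterozygote. Fkbp14, an ER prolyl isomerase gene, was at 131, 98.9 and 110.1 CPM in the mutant, 52.5, 105 and 75.9 CPM in the NES heterozygote and 43.9, 111 and 43.8 CPM in the null heterozygote. In each, replicate 2 was the highest library of both heterozygotes and the lowest of the mutant, which is also the order of the eggshell and yolk share within those genotypes. The genotypes overlapped for all 3. Their log2 fold changes of 1.02 (SE 0.824), 0.76 (SE 0.657) and 0.78 (SE 0.384) had edgeR adjusted p of 0.476, 0.499 and 0.323. The part of egg chamber stage in these levels was not tested.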
